A study of Mus musculus with 192 samples.

Results

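The genes described here are 7 members of the mouse Ifi200 family, also called the PYHIN family: Ifi203, Ifi204, Ifi205, Mnda, Mndal, Pyhin1 and Aim2. They were chosen by name, as 7 of the 23481 gene rows of the count table, and all 7 were among the 4720 genes that passed the filter on low counts. Their expression was followed in dendritic cells derived from bone marrow, professional antigen-presenting cells that were grown with GM-CSF from the marrow of female C57BL/6J mice aged 6 to 8 weeks. Wells of 100000 cells were left as the control group Ctrl or exposed for 6 h to ligands of innate immune sensors, in 64 groups of 3 libraries. The 7 ligands keep the names of the labels. They are PAM, LPS (lipopolysaccharide), HMW, Zymosan (a depleted zymosan), SeV, cGAMP (3',3'-cGAMP, a cyclic dinucleotide) and CpGB. Besides Ctrl there were 7 groups with a single ligand, 21 with a pair and 35 with a triplet, so that every pair and triplet of the 7 ligands was measured. No genotype other than C57BL/6J is named, so every group shares it. The labels do not say whether the 3 libraries of a group came from separate mice, cultures or wells, and p-values therefore measure the spread between these libraries, which may be technical.

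Proteins of this family are built from an N-terminal pyrin domain, which binds other pyrin domains, and a C-terminal HIN domain, which binds DNA; some members carry only part of this plan. Aim2 binds double-stranded DNA in the cytosol and, through the adaptor Pycard, assembles an inflammasome that activates caspase-1, and Ifi204 is known as a sensor of DNA that acts through STING. The family was first recognised as a cluster of genes induced by interferon, and its members are markers of the interferon response in myeloid cells.

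All 7 genes lie in the same cluster on chromosome 1, within 680.9 kb (GRCm38, chr1:173350879-174031810, GENCODE M21 annotation). On the minus strand lie Ifi204 (chr1:173747293-173766943), Mnda (chr1:173896345-173913046), Ifi203 (chr1:173920407-173942672), Ifi205 (chr1:174011998-174031810) and Mndal (chr1:173849126-173942491). The annotated Mndal gene overlaps Mnda and Ifi203 on the same strand. Pyhin1 (chr1:173630917-173647928) and Aim2 (chr1:173350879-173466040) lie on the plus strand. RefSeq lists 5 of the 7 under the same symbol and 2 under another, Mnda as Ifi211 and Pyhin1 as Ifi209.

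The promoter stretches below are shown because 6 of the members, all but Aim2, were raised by the same 4 single ligands, and because several windows of the family carry the same short element near the start of transcription. RefSeq windows of 300 bases (250 before to 50 after the start, GRCm38.p6) were at hand for 6 of the 7 members. They were searched on both strands for the interferon-stimulated response element (ISRE) written as GAAANNGAAA, for the gamma-activated sequence written as TTCNNNGAA and for the NF-kB motif. Among 32817 windows of all genes, 3.43% held the ISRE letters, 8.29% the gamma-activated sequence and 4.5% the NF-kB motif. The ISRE letters were found for 4 of the 6 members, Ifi203, Ifi205, Mnda and Mndal, and the other motifs for none of the 6. Counted per window, as the shares of all genes are, 5 of the 8 windows of these 6 members held the ISRE letters, since Ifi203 and Mndal have 2 windows each. In these stretches of 70 bases, printed 5′ to 3′ on the gene's strand (minus for all 4), capitals mark the ISRE match, which begins 35, 36, 37 and 134 bases before the annotated start of Ifi203, Mndal, Mnda and Ifi205.
Ifi203 (chr1:173942488-173942557): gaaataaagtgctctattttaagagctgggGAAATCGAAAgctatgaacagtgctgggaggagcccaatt
Mndal (chr1:173880184-173880253): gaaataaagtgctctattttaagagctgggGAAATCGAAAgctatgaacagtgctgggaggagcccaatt
Mnda (chr1:173913044-173913113): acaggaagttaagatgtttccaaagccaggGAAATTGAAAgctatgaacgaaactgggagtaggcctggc
Ifi205 (chr1:174031850-174031919): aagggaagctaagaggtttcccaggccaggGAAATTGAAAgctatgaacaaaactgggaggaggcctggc
The stretches of Ifi203 and Mndal were identical over all 70 bases, and those of Ifi205 and Mnda matched at 62 of 70. A further match on the opposite strand lay 23 bases after the start in the window of Ifi205 and 54 bases before it in another window of Mndal, and another window of Ifi203 held none. The windows of Pyhin1 and Aim2 held no match, which says only that these letters are not in those windows. The windows of 3 relatives outside the 7 carried the element too: AI607873 (RefSeq Ifi207) 41, Pydc3 (Ifi208) 58 and Pydc4 (Ifi213) 73 bases before the start. The window of a further relative, Ifi202b, held no ISRE match and 1 match to the gamma-activated sequence. A match is a description of the letters and not evidence of a bound factor.

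Likeness also limits the counts themselves, since the treatment of reads that fit several genes is not given in the sources used here. Of the 50-base words in the annotated transcripts of Mnda, 72.8% also occur in another gene of the family, and in its last 500 bases 77.4%. The shared fraction was 33.4% for Pyhin1, 19.2% for Ifi204, 18.6% for Ifi205, 17.7% for Mndal, 12.2% for Ifi203 and 0.0% for Aim2. In the last 500 bases it was 47.8% for Pyhin1, 39.6% for Ifi205, 22.9% for Mndal, 9.1% for Ifi203, 0.554% for Ifi204 and 0.0% for Aim2. The values of Mnda, Pyhin1 and Ifi205, and of Mndal, which also overlaps Ifi203 and Mnda, are therefore uncertain as values of a single gene.

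Levels are given as CPM, UMI counts per 1000000 UMIs of the library's tested genes, with that total scaled by TMM. A UMI marks 1 original cDNA molecule. Library totals ranged from 46564 to 610234 with a median of 171616, and the 3 Ctrl libraries held only 61823 to 89530. The dendritic cell marker list (9 of 9 genes in the table, led by H2-Aa, H2-Ab1 and H2-Eb1) summed to 5924 to 6524 CPM in Ctrl libraries and to 6113 to 8437 in group means. The macrophage list (8 of 9 genes, led by Csf1r) summed to 3455 to 3716 in Ctrl libraries and to 1801 to 3690 in group means, lowest for LPS_cGAMP_CpGB. B cell, T or NK cell and mast cell lists stood at or near 0, with Cd3e at 0 throughout, and the neutrophil list at 476 to 924. The plasmacytoid list of 4 genes summed to 41.6 to 62.4 CPM in Ctrl libraries and had means of 166 for LPS, 151 for cGAMP, 143 for SeV, 88.1 for CpGB, 53.8 for HMW and for Ctrl, 36 for PAM and 22.8 for Zymosan, and up to 234 for PAM_LPS. Among single ligands it was thus highest with the 4 that raised most members. The sum was carried by the transcription factor Tcf4 (4128 counts in all libraries), while Ccr9, Spib and Siglech, the defining surface lectin of these cells, held 89, 45 and 35 counts. Siglech held 2 counts each in Ctrl and with LPS, 1 each with PAM and HMW and 0 with Zymosan, SeV, cGAMP and CpGB. The part of these shifts in the results was not tested, and in such bulk libraries a change in the share of cells that express a gene cannot be told apart from a change per cell.

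In unstimulated cells the 3 Ctrl libraries together held few counts of the 7 genes: 55 for Ifi204, 27 for Mndal, 21 for Pyhin1, 10 for Ifi203, 8 each for Ifi205 and Mnda and 6 for Aim2. These counts limit the precision of every fold change against Ctrl. With single ligands, 30 of 49 comparisons of a member with Ctrl were called higher (edgeR's quasi-likelihood test, adjusted p under 0.05 and a log2 fold change not below 1) and 0 lower. LPS, SeV, cGAMP and CpGB each raised 6 of the 7, all but Aim2. HMW raised 3, Zymosan 2 and PAM 1. Among all tested genes the share called higher was 14.6% for LPS, 10.5% for SeV, 11.7% for cGAMP, 10.8% for CpGB, 0.953% for HMW, 4.43% for Zymosan and 8.01% for PAM. Over the 7 members the median log2 fold change was 3.14 for LPS, 2.87 for SeV, 2.78 for cGAMP, 2.58 for CpGB, 0.94 for HMW, 0.84 for Zymosan and 0.58 for PAM, while the median of all genes lay between -0.09 and 0.03.

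Ifi203 encodes a nuclear family protein whose function is little defined, and it was the member that every single ligand raised. Its Ctrl libraries held 55.4, 24.9 and 38.4 CPM (mean 39.6 ± 15.3, SD, n = 3). With cGAMP the libraries stood at 706, 906 and 651 CPM, with SeV at 640.3, 751 and 788, and with LPS at 618, 632 and 501. All 9 of these libraries lay above every Ctrl, CpGB, HMW, Zymosan and PAM library. CpGB libraries held 291, 439 and 374 CPM, HMW libraries 274, 345 and 167, Zymosan libraries 175, 249.6 and 121, and PAM libraries 125, 131 and 172, each of these above all 3 Ctrl libraries. The log2 fold change was 4.26 (SE 0.29, adjusted p = 7.08e-32) for cGAMP, 2.72 (SE 0.35, adjusted p = 4.8e-10) for HMW and 1.85 (SE 0.39, adjusted p = 9.72e-05) for PAM. With 10 Ctrl counts, the ratio of summed counts over the scaled totals for cGAMP was 19.6 with a 95% exact interval of 10.5 to 41.2 that covers counting error only.

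Ifi204, the DNA sensor, had the most Ctrl counts and so the smallest errors. Its Ctrl libraries held 166, 199.6 and 259 CPM. LPS libraries held 1511, 1519 and 1700.3 CPM, SeV libraries 1567, 1633 and 1515, and cGAMP libraries 1531, 1432 and 1455. CpGB libraries lay below all 9 of these, at 1184, 1241 and 1139 CPM. The log2 fold change was 2.88 (SE 0.19, adjusted p = 4.33e-34) for LPS and 2.47 (SE 0.19, adjusted p = 9.82e-26) for CpGB. HMW gave 615, 789 and 460.1 CPM, a rise of 1.54 on the log2 scale (SE 0.21, adjusted p = 5.21e-09), with no library in the Ctrl range. PAM (249, 266 and 339 CPM) and Zymosan (248, 479.9 and 252) overlapped Ctrl, and neither was called.

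Pyhin1 encodes a family member with a pyrin and a HIN domain. Its Ctrl libraries held 97.0, 87.3 and 67.2 CPM. With cGAMP they held 1229, 1326 and 1442 CPM, with SeV 1175, 1249 and 1102, and with LPS 1094, 1164 and 1235, which gave log2 fold changes of 4.02 (SE 0.26), 3.82 (SE 0.26) and 3.82 (SE 0.26). CpGB reached less than these with no overlap, at 553, 531 and 599 CPM (log2 fold change 2.77, SE 0.29, adjusted p = 1.27e-16). HMW (274, 475 and 228 CPM; log2 fold change 2.01, adjusted p = 3.73e-07) and Zymosan (110.4, 269 and 154 CPM; 1.14, adjusted p = 0.022) were called too, and replicate 2 was the highest library in both. The Zymosan call was lost without Zymosan replicate 2 (log2 fold change 0.77, adjusted p = 0.289), without Ctrl replicate 3 (1.01, adjusted p = 0.148) and by DESeq2 (1.01, adjusted p = 0.0698). PAM (138, 85.5 and 94.5 CPM) overlapped Ctrl.

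Ifi205, a nuclear protein of myeloid cells, had 8 counts in the Ctrl libraries, which held 13.9, 49.9 and 28.8 CPM. LPS libraries held 424, 333 and 376 CPM, cGAMP libraries 367, 339 and 276, SeV libraries 344, 284 and 258 and CpGB libraries 155, 168 and 231. All 12 lay above Ctrl, and the log2 fold change ran from 3.56 (SE 0.40, adjusted p = 8.29e-15) for LPS to 2.58 (SE 0.46, adjusted p = 1e-06) for CpGB. HMW (24.9, 76.2 and 37.2 CPM), PAM (59.0, 35.2 and 50.0) and Zymosan (46.0, 102 and 23.3) overlapped Ctrl and were not called.

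Mnda, named after the human myeloid cell nuclear differentiation antigen, held 27.7, 37.4 and 28.8 CPM in Ctrl and 328, 299 and 233 with LPS (log2 fold change 3.14, SE 0.38, adjusted p = 4.05e-13). CpGB (mean 213 ± 25.2 CPM), cGAMP (211 ± 77.0) and SeV (193 ± 23.4) were called as well, and PAM (76.3 ± 13.6, log2 fold change 1.25, adjusted p = 0.0675) was not. Mndal, whose name marks it as Mnda-like, held 97.0, 112 and 106 CPM in Ctrl. It reached 793, 797 and 689 CPM with SeV (log2 fold change 2.83, SE 0.23, adjusted p = 5.96e-24), 728 ± 56.3 with cGAMP, 674 ± 25.4 with LPS and 416 ± 84.1 with CpGB. For Mndal, PAM (0.90, adjusted p = 0.0156) and Zymosan (0.98, adjusted p = 0.0164) passed the p threshold and stayed under the fold threshold. The plot of levels after single ligands shows these values library by library.

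**Figure D1:**
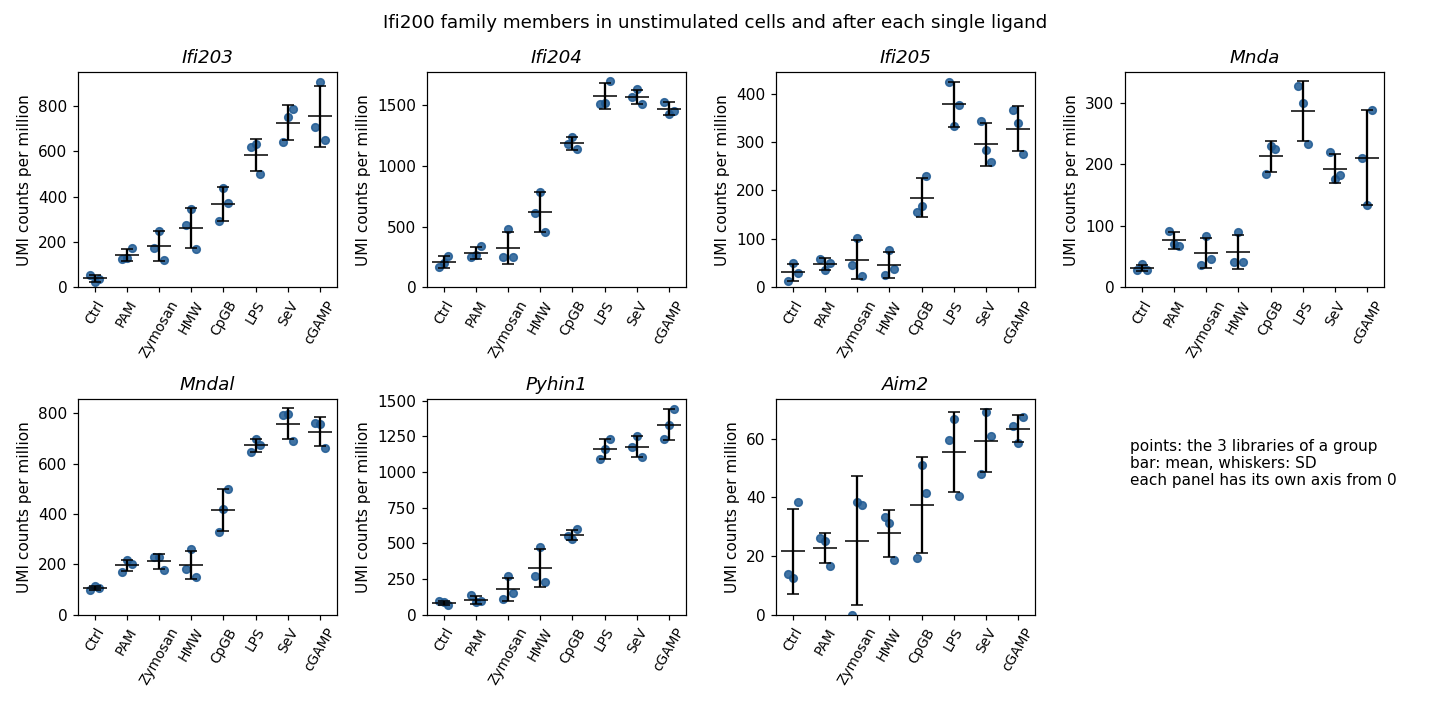
CPM (y axis, linear, from 0) of each of the 7 members in Ctrl and after each single ligand (x axis); points are the 3 libraries, bars and whiskers their mean and SD. LPS, SeV and cGAMP stand highest for Ifi203, Ifi204, Ifi205, Mndal and Pyhin1, CpGB lies between these and HMW, Zymosan and PAM, and Aim2 reaches at most 69.0 CPM in any of these libraries.

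Aim2, the DNA sensor of the inflammasome, was the exception. Its Ctrl libraries held 13.9, 12.5 and 38.4 CPM from 6 counts, cGAMP libraries 64.2, 58.4 and 67.5, SeV libraries 47.8, 69.0 and 61.0 and LPS libraries 59.6, 66.5 and 40.3. All 9 stimulated libraries lay above Ctrl, yet the log2 fold changes of 1.41 (SE 0.61, adjusted p = 0.0826), 1.34 (SE 0.62, adjusted p = 0.122) and 1.19 (SE 0.61, adjusted p = 0.137) did not pass. edgeR's quasi-likelihood test called 0 of 7 single ligands for Aim2, with 2 at an unadjusted p under 0.05, and DESeq2 called 0, with 0 at an unadjusted p under 0.05. Changes only slightly larger were called in some combinations, such as LPS_HMW_SeV (1.48, adjusted p = 0.0426).

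When single ligands were compared with each other, 93 of 147 member comparisons were called in either direction, where 18.8% of all gene comparisons were. Of the 21 contrasts per gene, 18 were called for Pyhin1, 16 each for Ifi203 and Ifi204, 15 for Mndal, 14 for Ifi205, 12 for Mnda and 2 for Aim2. LPS, SeV and cGAMP were neighbours at the top of the order of mean levels for every member but Mnda, and no neighbouring pair of them differed by the test. CpGB came next for these genes. It was lower than the ligand above it for Pyhin1 (LPS higher by 1.05 on the log2 scale, SE 0.15, adjusted p = 1.57e-08), Mndal (LPS higher by 0.66, SE 0.15, adjusted p = 0.000874) and Ifi203 (LPS higher by 0.61, SE 0.16, adjusted p = 0.00368). It did not differ beyond the spread from the ligand above it for Ifi204 (cGAMP, 0.31, adjusted p = 0.0879), Ifi205 (SeV, 0.60, adjusted p = 0.0748) or Aim2 (LPS, 0.41, adjusted p = 0.709). For Mnda the order was SeV, cGAMP, CpGB and LPS from low to high, with no neighbouring difference called among these 4. CpGB in turn exceeded the ligand next below it for Ifi205 (PAM, HMW and Zymosan lay together; 1.79 above Zymosan, adjusted p = 3e-06), Mndal (1.04 above Zymosan, adjusted p = 1.19e-06), Ifi204 (0.93 above HMW, adjusted p = 8.1e-09), Pyhin1 (0.75 above HMW, adjusted p = 0.00043) and Ifi203 (0.53 above HMW, adjusted p = 0.0191). At the low end, HMW exceeded the next lower ligand Zymosan for Ifi204 (0.93, adjusted p = 4.87e-06) and for Pyhin1 (0.88, adjusted p = 0.00227), and Zymosan exceeded PAM for Pyhin1 alone (0.80, adjusted p = 0.0321).

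Across all 63 stimulated groups, 378 of 441 member comparisons with Ctrl were called higher, against 14.3% of all gene comparisons. These comparisons share the 3 Ctrl libraries. RLE factors in place of TMM moved the median of all genes against Ctrl by -0.21 to -0.07 on the log2 scale. Library totals alone moved it by -0.54 to -0.03. Under these scalings members were counted by adjusted p and direction only, whatever the size of the change. By that looser rule 372 and 367 of the 441 were higher and 0 lower. The 378 also needed a log2 fold change of at least 1, so the counts cannot be compared directly. By kind of group the 378 comprised 30 of 49 for single ligands, 129 of 147 for pairs and 219 of 245 for triplets. By edgeR 0 of 441 were called lower, with 1 at an unadjusted p under 0.05, and by DESeq2 0 as well, with 1. Ifi203 was called in 63 of 63 groups, Pyhin1 in 61, Ifi204 in 60, Ifi205, Mnda and Mndal in 59 each and Aim2 in 17. The median log2 fold change over the 63 groups was 4.03 for Ifi203, 3.93 for Pyhin1, 3.76 for Ifi205, 2.94 for Mnda, 2.88 for Ifi204, 2.73 for Mndal and 1.19 for Aim2. Apart from Aim2, the groups that were not called held PAM, HMW or Zymosan alone, or PAM with Zymosan; every triplet was called for these 6 members.

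The groups were next split by whether LPS, SeV or cGAMP was present. Among single ligands these gave the highest means for every member but Mnda. The split therefore describes the same levels and is no independent support, and its overlap was not counted over all genes. The mean of Pyhin1 ranged from 812 CPM upward in the 49 groups with at least 1 of these ligands and up to 824 in the 15 groups without, with 1 group of the 49 below the highest of the 15. For Mndal the lowest mean with them was 581 CPM and the highest without was 594, again with 1 group below. Ifi204 spanned 1393 CPM upward with them and up to 1503 without, and 4 of the 49 lay below that. More groups crossed for Ifi205 (9 of 49), Ifi203 (13) and Mnda (14), and for Aim2 it was 25 of 49. The heat map of all conditions shows the same split.

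**Figure D2:**
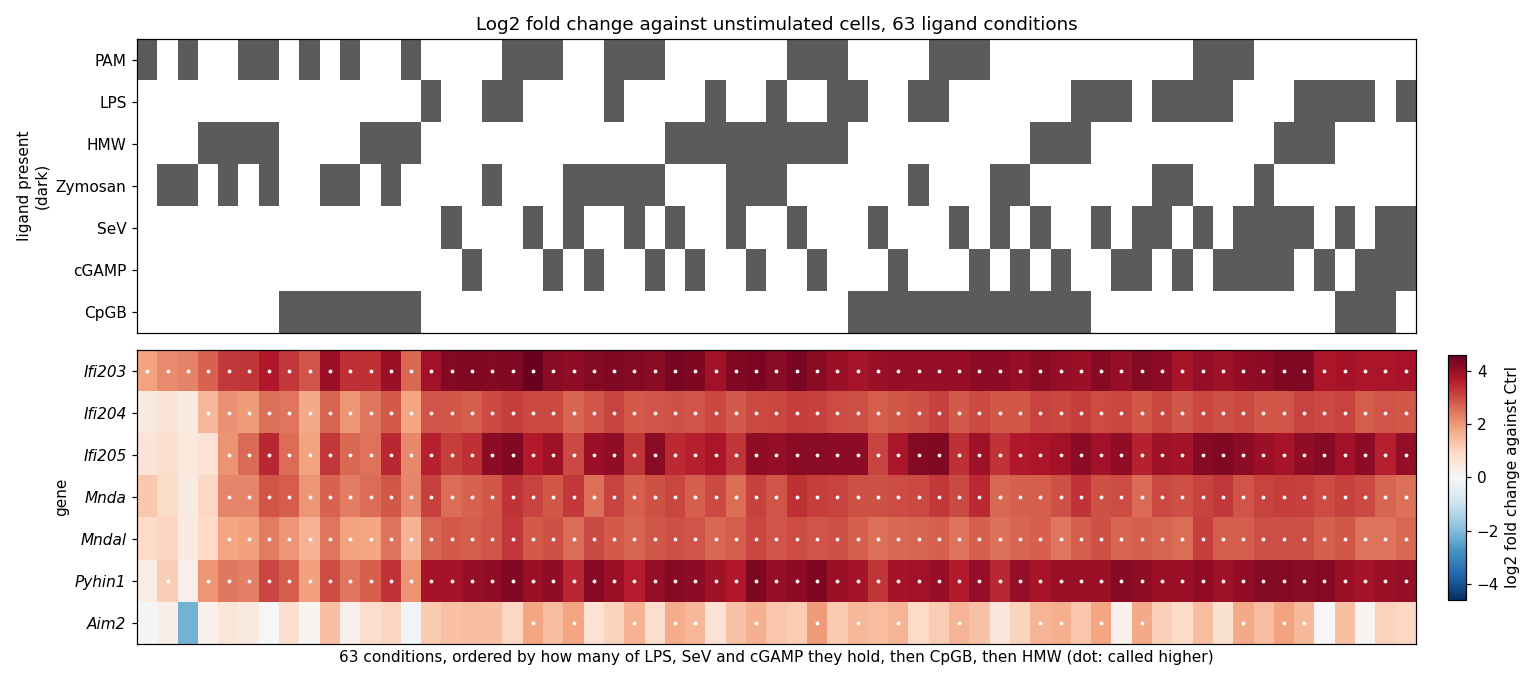
Log2 fold change against Ctrl (colour, scale at right) of the 7 members (rows) in the 63 stimulated groups (columns), with the ligands of each column in dark squares above. Columns with LPS, SeV or cGAMP are nearly even in colour for the 6 members other than Aim2, and the pale columns hold PAM, HMW and Zymosan.

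Each ligand was also followed as it was added to 22 backgrounds (Ctrl, the other 6 single ligands and their 15 pairs). Averaged over the 22, the addition raised a member in 41 of 49 cases and lowered it in 1, against 21.1% of all gene cases raised and 19.2% lowered (adjusted p under 0.05, no fold threshold). The 1 lower case was Aim2 with PAM (-0.26 on the log2 scale, SE 0.10, adjusted p = 0.0374), a call lost without any 1 of the 3 replicate numbers (adjusted p from 0.0842 to 0.153). The rises of Ifi203 and Mndal with PAM were small (0.09 each) and turned to -0.04 and -0.03 with library totals as the only scaling, and Pyhin1 then stood at -0.15 with PAM (adjusted p = 0.000277). The largest averages were those of Ifi205 with LPS (1.51, SE 0.05) and with cGAMP (1.29, SE 0.05), and of Pyhin1 with cGAMP (1.28, SE 0.04), LPS (1.18, SE 0.04) and SeV (1.02, SE 0.04). HMW averaged between 0.23 and 0.48 for the 6 members other than Aim2, and all 6 were called. CpGB averaged between 0.18 and 0.60 for the same 6, and all 6 were called.

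These averages hide a split by background. Where the background lacked LPS, SeV and cGAMP, adding 1 ligand raised a member in 269 of 427 cases and lowered it in 9, with a median log2 change of 1.00; among all genes 8.32% of cases rose and 4.50% fell. Where the background held at least 1 of these 3 ligands, 16 of 651 cases rose and 9 fell, with a median of 0.03, against 2.43% and 1.44% of all gene cases. The members' share in such backgrounds was therefore near that of all genes. The 269 and the 16 also come from different mixtures of added ligands. Of the 269 rises, LPS, SeV and cGAMP gave 62, 58 and 63, in 77 cases each. PAM, HMW, Zymosan and CpGB gave 13, 21, 19 and 33, in 49 cases each. In backgrounds with LPS, SeV or cGAMP, these 3 ligands had 77 cases each and the others 105 each. HMW, Zymosan, SeV and CpGB raised a member in 0 cases there by edgeR, with 9, 9, 5 and 3 cases at an unadjusted p under 0.05, and in 0 by DESeq2, with 8, 6, 6 and 3. The count of 16 fell to 3 without replicate 3 of every group and to 10 without replicate 2, and stood at 9 with library totals as the only scaling. Once every library was thinned to the lowest total, the 269 became 94. HMW, for example, raised members in 21 of 49 cases without LPS, SeV and cGAMP (median 0.67) and in 0 of 105 with them (median 0.10). The plot of changes on addition of a ligand separates both kinds of background.

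**Figure D3:**
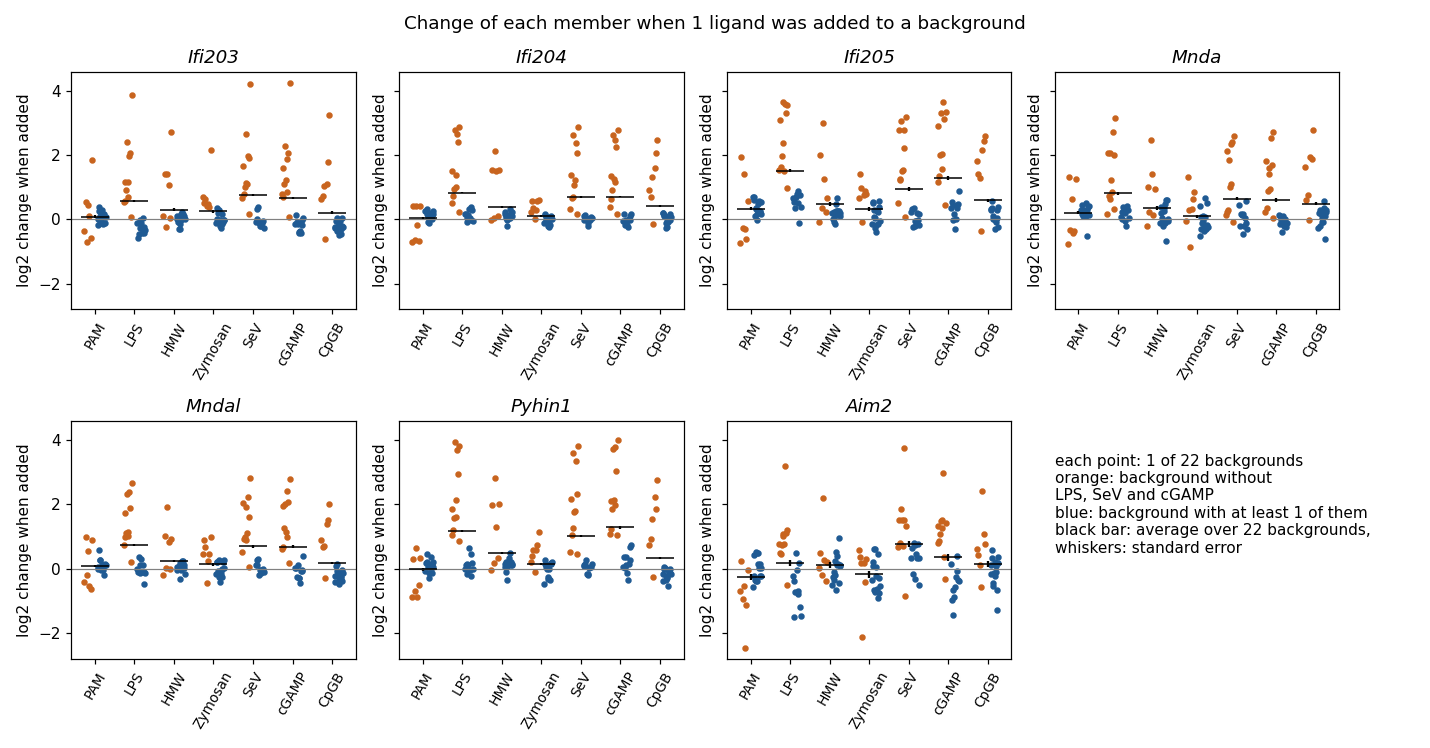
Log2 change (y axis) of each member when the ligand on the x axis was added, 1 point per background, coloured by whether the background held LPS, SeV or cGAMP. Points with these ligands in the background lie around 0, and those without reach 4.26 for Ifi203 with cGAMP added to Ctrl.

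Of the 16 rises in backgrounds with LPS, SeV or cGAMP, 11 were of Ifi205, 4 of Pyhin1 and 1 of Mndal. LPS raised Ifi205 in 6 of 11 such backgrounds, for example from 327 CPM with cGAMP to 540.3 with LPS_cGAMP (log2 change 0.75, SE 0.20, adjusted p = 0.0031) and from 285 with Zymosan_SeV to 479.6 with LPS_Zymosan_SeV (0.88, SE 0.22, adjusted p = 0.00246). Neither passed without replicate 3 of every group (0.49 with adjusted p = 0.249, and 0.56 with adjusted p = 0.348), and the first turned to -0.12 (adjusted p = 0.988) after thinning every library to the lowest total. PAM raised it in 4 of 15, among them from 378 CPM with LPS to 598 with PAM_LPS (0.69, SE 0.18, adjusted p = 0.00924), where the libraries held 510.3, 684 and 599 CPM. The highest group mean of Ifi205 was that of PAM_LPS_cGAMP, at 569, 636 and 613 CPM. Whether the count of Ifi205 differs from those of the other members was not tested.

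In all, 18 steps fell, a share no higher than that of all genes in either kind of background (4.50% and 1.44%, above). PAM accounted for 9, of which 8 were among the 21 cases of PAM added to CpGB, HMW_CpGB or Zymosan_CpGB, where 1.11% of all gene cases fell. These 3 backgrounds were picked out after their values were seen. Ifi204 held 1184, 1241 and 1139 CPM with CpGB and 697, 822 and 640.03 with PAM_CpGB, with no overlap, and fell by 0.72 on the log2 scale (SE 0.15, adjusted p = 0.000367). Pyhin1 fell by 0.88 (SE 0.20, adjusted p = 0.00159), from a mean of 561 CPM to 300.2, with libraries of 258, 459 and 184. Without replicate 3 of every group, neither of these falls passed (-0.69 with adjusted p = 0.0523 for Ifi204 and -0.58 with adjusted p = 0.413 for Pyhin1). Ifi204 also fell when PAM joined HMW_CpGB (by 0.64, adjusted p = 0.00053) and Zymosan_CpGB (by 0.66, adjusted p = 0.000321); the first of these was lost without replicate 2 (-0.54, adjusted p = 0.114). On top of LPS, SeV or cGAMP, PAM lowered none of the 7 in 105 cases (by edgeR, with 2 at an unadjusted p under 0.05; by DESeq2 0 too, with 1). The other 9 falls were 4 with LPS, 2 each with cGAMP and CpGB and 1 with Zymosan, from 0.41 to 1.51 on the log2 scale, the largest that of Aim2 when LPS joined HMW_cGAMP (68.5 to 23.2 CPM, adjusted p = 0.0108; -1.38 and adjusted p = 0.143 without replicate 3).

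For 65 of 147 combinations of a member and a pair, the pair fell short of the sum of its ligands' log2 effects. The interaction is the log2 fold change of the pair against Ctrl less those of both its ligands. It was called negative in these 65 cases, positive in 0 and in neither direction in the others, where 3.50% of all gene cases were negative and 1.08% positive (by edgeR 0 positive at an unadjusted p under 0.05 as well; by DESeq2 0 positive, and 1 at an unadjusted p under 0.05). Among the 6 pairs drawn from LPS, SeV, cGAMP and CpGB, 37 of 42 were negative, with a median of -2.76 and a range from -4.26 to -0.43. In the 12 pairs of 1 such ligand with PAM, HMW or Zymosan, 26 of 84 were negative (median -0.88). In the 3 pairs within PAM, HMW and Zymosan 2 of 21 were, with a median of -0.09. Pyhin1 shows the size of it: LPS gave 1164 CPM, cGAMP 1332 and LPS_cGAMP 1374, 1647 and 1512, so that the pair stood 3.64 (SE 0.31, adjusted p = 1.36e-22) below the sum of both effects. By member the negative calls were 19 of 21 for Ifi203, 12 for Pyhin1, 11 for Ifi204, 9 for Mndal, 7 for Mnda, 6 for Ifi205 and 1 for Aim2. The 21 interactions of a member all contain the same Ctrl libraries, with only 10 counts for Ifi203, and are not independent cases. An error in the Ctrl level would shift all of them in the same direction, and the members' counts were not compared by a test.

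**Figure D4:**
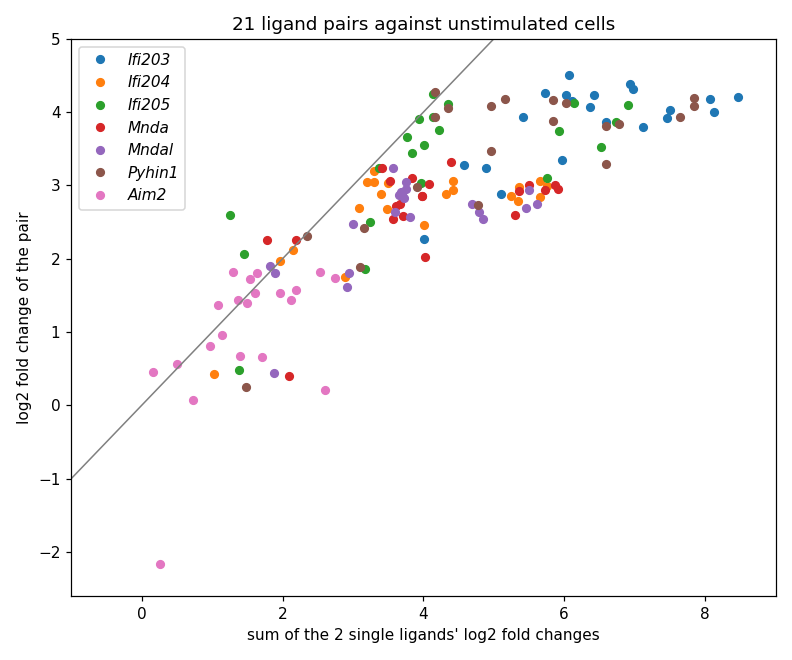
Log2 fold change of each pair against Ctrl (y axis) against the sum of the log2 fold changes of its single ligands (x axis), 1 point per member and pair (7 members, 21 pairs); the line marks equality. Points leave the line downward as the sum grows, and the interaction reaches -4.26 for Ifi203.

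A pair was called above both of its single ligands by 1 or more on the log2 scale in 4 of 147 cases, against 0.353% of all gene cases. The 4 were Ifi205 and Mnda with PAM_HMW and with HMW_Zymosan. Without replicate 3 of every group the count was 1, Ifi205 with PAM_HMW. Ifi205 held 154, 179 and 226 CPM with PAM_HMW, above all 6 libraries of PAM and of HMW, and exceeded the higher of both by 1.93 (adjusted p = 1.2e-06). Mnda held 127, 148 and 171 CPM with HMW_Zymosan, above all 6 libraries of its single ligands (least difference 1.32, adjusted p = 0.00161). With no fold threshold 11 of 147 cases passed, against 0.805% of all genes, the others being Mndal with PAM_HMW, Ifi204 and Mndal with HMW_Zymosan, Ifi205, Mndal and Pyhin1 with PAM_LPS and Ifi203 with Zymosan_CpGB. A pair above both of its ligands need not have a positive interaction. All 21 interactions of Ifi203, that with Zymosan_CpGB among them, lay at -1.30 or below. The interaction of Ifi205 with PAM_HMW was positive but did not pass (1.34, SE 0.76, adjusted p = 0.86 in edgeR's test). No positive departure from additive log2 effects was called for any of the 147 cases. The 2 negative calls among the pairs of PAM, HMW and Zymosan were Ifi203 (-1.75) and Mndal (-1.44) with PAM_Zymosan.

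For triplets, 0 of 245 cases exceeded all 3 of their pairs with the fold threshold (0 at an unadjusted p under 0.05 by edgeR, and 0 of either kind by DESeq2). With no fold threshold 2 passed, against 0.0297% of all genes, both for PAM_HMW_Zymosan. Ifi205 held 478, 249 and 348 CPM there, above its 3 pairs by at least 0.89 (adjusted p = 0.00706), and Pyhin1 held 1027, 444 and 615 CPM, above by at least 0.64 (adjusted p = 0.0201). Replicate 1 of this triplet was the highest library for every member, as for Ifi204 with 1718, 829 and 1215 CPM. In a fit without that library, chosen after seeing the data, the least difference was 0.67 for Ifi205 and 0.28 for Pyhin1, with adjusted p = 1 for both in edgeR's test, so that neither passed.

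**Figure D5:**
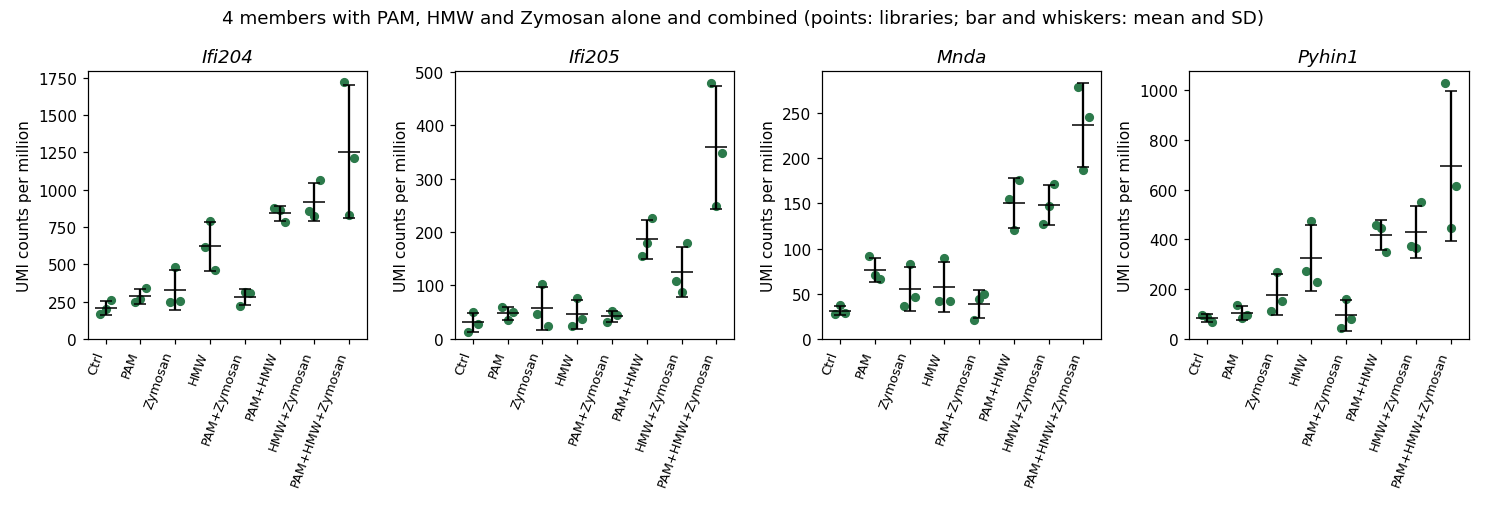
CPM (y axis, from 0) of 4 members in Ctrl and with PAM, HMW and Zymosan alone, in pairs and as a triplet (x axis); points are libraries, bars and whiskers mean and SD. PAM_Zymosan stays near Ctrl for Ifi204, Ifi205 and Pyhin1, pairs with HMW lie higher, and the triplet reaches the highest mean with its replicate 1 far above the other 2 libraries for Ifi204 and Pyhin1.

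PAM with Zymosan gave the lowest stimulated means for Ifi205 (42.7 CPM), Mnda (38.4), Mndal (139), Ifi204 (281) and Pyhin1 (94.7), none of them called against Ctrl, while Ifi203 was raised there (105, 236 and 205 CPM; log2 fold change 2.27, SE 0.38, adjusted p = 2.57e-07). Aim2 stood lowest of all 64 groups there, at 0, 7.37 and 4.99 CPM from 2 counts, below all 3 Ctrl libraries, which was not called (adjusted p = 0.147; ratio of summed counts over the scaled totals 0.198, exact 95% interval 0.0196 to 1.11, counting error only).

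Aim2 was called in 17 of 63 groups, 8 pairs and 9 triplets. The count was 11 with RLE factors, 6 with library totals as the only scaling, 4 by DESeq2, 9 without replicate 1 and 2 without replicate 2 of every group, and 1 after thinning. SeV was present in 11 of these and cGAMP in 8, and only 1 of the 25 groups without SeV and cGAMP was called. Of the 22 groups with LPS, 3 were called. With cGAMP, 8 of 16 groups without LPS were called and 0 of 6 with it; with SeV, 9 of 16 groups without LPS were called and 2 of 6 with it. Whether these counts differ was not tested. The share of all genes called higher was 14.3% over the 63 groups and was not counted within these splits. The highest mean was that of PAM_HMW_cGAMP, at 94.5, 98.5 and 86.7 CPM (1.96 on the log2 scale, SE 0.54, adjusted p = 0.00189), and LPS_SeV (83.8, 119.5 and 55.4 CPM; 1.82, SE 0.57, adjusted p = 0.00737) was called too. LPS_cGAMP, by contrast, held 43.8, 13.8 and 27.1 CPM, 2 of them within the range of Ctrl. Averaged over 22 backgrounds, SeV raised Aim2 by 0.77 (SE 0.10, adjusted p = 1.19e-11) and cGAMP by 0.35 (SE 0.11, adjusted p = 0.00252), while LPS (0.17, adjusted p = 0.146), HMW (0.12), CpGB (0.15) and Zymosan (-0.18) did not pass.

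Over the 64 group means of log2 CPM, the 6 members other than Aim2 varied together, with Pearson's r from 0.872 to 0.969 over their 15 pairs (median 0.940). For Aim2 with each of these r was 0.616 to 0.738 (median 0.711). Groups share ligands, libraries share the pooled preparation, and reads of like sequence may be shared, so these values describe the series and carry no test. Aim2 had a median of 8 counts per library, against 37 (Mnda) to 248 (Ifi204) for the other members. Counting error lowers r, and its part in the lower r of Aim2 was not tested. Outside the family, by Pearson's r, Ifi47, an interferon-induced GTPase, was the most alike gene for Pyhin1 (0.986), Ifi204 (0.980), Ifi205 (0.975) and Mndal (0.974). Nt5c3 led for Ifi203 (0.957), the antiviral ADP-ribosyltransferase Parp12 for Mnda (0.946) and Serpina3g for Aim2 (0.825). Next came Oas3 and Slfn5 for Ifi204, Isg15 and Ifitm3 for Ifi205, Sp110 and Ifit2 for Pyhin1, Nt5c3 and Irgm1 for Mndal, Znfx1 and Igtp for Ifi203, Trex1 and Ddx58 for Mnda and Tpst1 and Ifit3 for Aim2. The ranking depends on the measure. By Spearman's rho only 5 of these 21 entries, in which Ifi47 and Nt5c3 recur, were again among the first 3 of their member. Ifi47 was in no first 3, and Ifit2 led for Pyhin1 (0.925), Aida for Ifi204 (0.875), Kpna3 for Ifi205 (0.912) and Iigp1 for Mndal (0.859).

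Of 15 further symbols of the family that were searched, 5 had a row. Among all genes 14.3% of comparisons with Ctrl over the 63 groups were called higher. Pydc3 and Pydc4, pyrin-only relatives by name, were called higher in 53 and 54 of 63 groups, AI607873 in 51 and BC094916 in 48. Their counts in Ctrl were 3, 1, 58 and 1. AI607873 stood at 228 CPM in Ctrl and rose to 725 with cGAMP (log2 fold change 1.67, SE 0.20, adjusted p = 4.47e-13), while CpGB (316 CPM, adjusted p = 0.0937) was not called. Ifi202b, whose protein has HIN domains and no pyrin domain and which is known to be poorly expressed in C57BL/6 mice, held 44 counts in all libraries together, 0 of them in Ctrl, and was not tested.

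Genes of 4 pathways around the family were counted by the same rule. Among all genes it called 14.6% higher with LPS, 10.5% with SeV, 11.7% with cGAMP, 10.8% with CpGB, 8.01% with PAM, 4.43% with Zymosan and 0.953% with HMW, and the counts below are to be read against these shares. No test compared the lists with the family or with each other. Of 16 interferon response genes, 16 rose with each of LPS, SeV, cGAMP and CpGB, with medians of 3.85, 3.81, 4.13 and 2.46 on the log2 scale for LPS, SeV, cGAMP and CpGB, where the median of all genes lay between -0.09 and -0.03; 6 rose with HMW, 3 with PAM and 1 with Zymosan. Mx1, an antiviral GTPase, rose from 393 to 5607 CPM with LPS (log2 fold change 3.87, SE 0.17). Of 13 genes of interferon signalling, 10 rose with SeV, 9 with cGAMP, 8 with LPS, 6 with CpGB, 4 with PAM and 3 each with HMW and Zymosan, with medians of 2.56 for SeV and 1.46 for LPS; Irf7, the transcription factor that amplifies interferon production, rose from 133 to 1593 CPM with LPS (3.58, SE 0.24). Of 9 tested genes of cytosolic DNA sensing, 4 each rose with LPS, SeV and cGAMP, 3 with CpGB, 2 with PAM and 1 each with HMW and Zymosan, with medians of 1.53 for SeV, 0.89 for LPS and -0.04 for Zymosan. Trex1, the cytosolic DNA exonuclease, rose from 75.8 to 586 CPM with LPS (2.90, SE 0.29), and Tmem173, the table's symbol for STING, stood at 28.6 CPM in Ctrl and 65.4 with cGAMP (1.24, SE 0.65), which did not pass. Of 11 tested inflammasome genes, 8 rose with LPS, 6 each with SeV and CpGB, 5 with PAM, 4 with cGAMP, 2 with Zymosan and 0 with HMW (by edgeR, with 1 at an unadjusted p under 0.05; by DESeq2 0, with 0). In this list 1 gene fell with LPS and 1 with PAM, in both cases Pycard, the adaptor of Aim2, a share near that of all genes called lower (9.60% for LPS and 5.89% for PAM). It fell from 222 to 76.5 CPM with PAM (by 1.55 on the log2 scale, SE 0.32) and to 105 with LPS (by 1.10, SE 0.30). With Zymosan (114 CPM, -0.93, adjusted p = 0.0296) and CpGB (127 CPM, -0.89, adjusted p = 0.0177) it passed the p threshold and stayed under the fold threshold, and it stood at 206 CPM with cGAMP (-0.09, SE 0.27). Casp1, the protease it recruits, rose with LPS and with cGAMP (2.57, SE 0.33, and 2.07, SE 0.36). The lists were chosen with earlier results of these data known, and their counts are no independent support.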

How the data were processed

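Per the labels' protocols, RNA of stimulated cells was reverse transcribed with template switching and barcoded cDNA was pooled. Reads were aligned with BWA 0.7.15 to mm10, per the submitters' processing notes. The annotation, the UMI rule and the treatment of reads that fit several genes are not given in the sources used here. The authors deposited whole-number UMI counts per gene symbol, without normalization. CPM here is the count divided by the TMM-scaled total of the tested genes.

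In R 4.3.3, edgeR 4.0.16 kept 4720 of 23481 genes (filterByExpr; 95.7% of UMIs), scaled totals by TMM and fitted 1 coefficient per group to all libraries (128 residual degrees of freedom). The quasi-likelihood F test of edgeR was applied to each contrast, with Benjamini-Hochberg adjustment over all tested genes within the contrast; for speed each null was fitted on the libraries of the contrasted groups. Calls against Ctrl needed an adjusted p under 0.05 and a log2 fold change of 1 or more in size, other contrasts the p alone. A pair (or triplet) exceeded its components where every difference was positive and the largest p passed after adjustment. The scripts were tested on simulated counts. Replicate numbers were not used as a pairing in the main fit, since the labels name no shared source. Correlations of deviations between same-numbered libraries ranged from -0.293 to 0.18 (mean 0.0083). Even so, 167 of 192 libraries (87.0%) correlated best with libraries of their own number, so a shared source of same-numbered libraries remains possible. No libraries were identical. Genes named are the 7 members, relatives from a list of symbols, the 3 genes most correlated with each member and, per list, the 3 genes of highest mean and named adaptors. Members and lists were chosen with earlier results of these data known. Alternatives were other normalizations, filters and thresholds, DESeq2 1.42.0, thinning, a replicate block and left-out libraries.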

Additional observations from a re-analysis of the deposited data

Results flagged for a closer look

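For Pyhin1, the effect of CpGB had opposite directions in 2 settings. Added to Ctrl, CpGB raised Pyhin1 by 2.77 on the log2 scale (adjusted p = 1.27e-16), and added to SeV it lowered Pyhin1 by 0.53 (log2 change -0.53, adjusted p = 0.0117). The difference of both effects, tested as an interaction in edgeR's quasi-likelihood model, was -3.30 (adjusted p = 6.42e-17). SeV libraries held 1175, 1249 and 1102 CPM and SeV_CpGB libraries 819, 783 and 833, with no overlap, while CpGB libraries held 553, 531 and 599. The interaction passed under all alternatives run, but the fall on top of SeV did not pass without any 1 of the 3 replicate numbers (adjusted p from 0.0557 to 0.082) or after thinning (-0.40, adjusted p = 0.996).

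Counts of Ifi202b were present although its row lay below the filter on low counts and entered no test. The row held 44 counts in all, 0 in the Ctrl libraries, and 158 libraries were at 0.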

How the results depend on the processing

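In 37 alternatives, 234 results gave 2745 comparisons with the reported values. The number of members called against Ctrl ranged from 29 to 32 (reported 30) over left-out replicates for single ligands and from 362 to 381 (reported 378) for all 63 groups. The fit without PAM_HMW_Zymosan replicate 1 and the counts of rises split by background were chosen after seeing the data, and the other alternatives were not.

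Thinning to the lowest library total, which removes most counts by construction, changed most. It left 10 groups called for Mnda (reported 59), 1 for Aim2 (17), 23 averaged effects (42), 22 interactions (65), 43 contrasts between single ligands (93), 0 pairs beyond their ligands (4), and 94 and 0 rises in backgrounds without and with LPS, SeV or cGAMP (269 and 16). Genes called against Ctrl then numbered 90 for PAM (656), 232 for LPS (1143), 4 for HMW (46), 29 for Zymosan (295), 124 for SeV (737), 147 for cGAMP (830) and 136 for CpGB (804). A fit on the ligand and Ctrl alone, which has fewer libraries, called 713 for LPS, 195 for Zymosan, 423 for SeV, 480 for cGAMP and 459 for CpGB. For the shifts below, the cause was not tested. Groups called for Aim2 were 11 with RLE factors, 6 with library size alone and 4 by DESeq2. With library size alone, 2 pairs exceeded their ligands and 9 rises remained in backgrounds with LPS, SeV or cGAMP. With no fold threshold, 11 pairs and 2 triplets passed.

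Over left-out replicates, genes called ranged from 17 to 65 for HMW (17 without replicate 2 of every group and 20 without HMW replicate 2), from 177 to 304 for Zymosan (186 and 177 without replicates 2 and 3) and from 485 to 749 for SeV (485 without replicate 3). Groups called for Aim2 ranged from 2 to 20, pairs beyond their ligands from 1 to 6, triplets from 0 to 1 (1 without replicate 2 or without replicate 3) and rises in backgrounds with LPS, SeV or cGAMP from 3 to 18.

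Some log2 changes turned direction. Over left-out replicates, Aim2 against Ctrl ranged from -0.37 to 0.94 for PAM, from -0.19 to 1.25 for HMW and from -0.18 to 1.13 for Zymosan, and the averaged PAM effect on Ifi204 from -0.00063 to 0.082. After thinning, Aim2 with PAM stood at 1.93 and Ifi204 with Zymosan at -0.34. Averaged effects after thinning were -0.0011 (Ifi204, PAM), -0.037 (Mnda, PAM), -0.029 (Mnda, Zymosan), -0.087 (Mndal, PAM) and -0.095 (Aim2, HMW). The step of Ifi203 when cGAMP joined PAM_SeV was then 0.081 (reported -0.43) and that of Ifi205 when LPS joined cGAMP -0.12 (reported 0.75). With library size alone, averaged PAM effects were -0.037 for Ifi203, -0.078 for Ifi204 and -0.034 for Mndal. With no filter on low counts, Aim2 with PAM was 0.14 and the averaged PAM effect on Pyhin1 0.0070.

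With the replicate number as a block, 64 interactions were called in place of 65, the lost one being Pyhin1 with PAM_CpGB (-1.22), and 19 rises in backgrounds with LPS, SeV or cGAMP in place of 16. Among the single values compared, no other call changed under the block. The labels give the numbers no meaning as a pairing. As a hint from the data, 167 libraries (87.0%), not all, correlated best with libraries of their own number, at a mean r of 0.0083 against -0.0041 for other numbers. Spearman's rank correlation shared 5 of the 21 entries of genes most like a member with Pearson's. The lowest library totals and the few Ctrl counts limit every fold change against Ctrl, those of Aim2 most.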
